A study of Mus musculus with 2 samples.

Results

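The genes described are 39 extracellular matrix genes, taken from a list of collagens, basement membrane components, proteoglycans, elastic fibre proteins, glycoproteins, processing factors, proteases and protease inhibitors. All 39 were found among the 31253 genes of the count tables. They were followed in stromal cells chosen by marker UMIs (unique molecular identifiers, each counting 1 captured transcript). Fibroblasts had at least 2 Col3a1 UMIs and no Epcam or Cdh5 UMI, which left 808 cells of 6909 kept barcodes in one library and 326 of 8247 in the other. They were split by the larger of the sums Dpt plus Scara5 and Adamdec1 plus Tcf21. Cells with at least 1 UMI of Cdh5, the endothelial cadherin, and cells with at least 1 UMI of Epcam, an epithelial adhesion molecule, were the 2 other groups, the latter as background.

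Single cells came from the whole intestine of wild-type mice, 1 mouse per group. Collagen-induced arthritis and standard chow define the RA library, and a diet holding 1% butyrate the butyrate library. Whether arthritis was also induced in the second mouse is not in the labels, which give no age, sex or strain either. With 1 mouse each, diet, disease, animal and library cannot be told apart, so no test between the libraries was made, and every interval covers counting error only. As the whole intestine was dissociated, the gut segment and wall layer of a cell are not known.

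Fibrillar collagens give tissue its tensile strength, and decorin, lumican and collagen XIV bind to their fibrils. Basement membranes are sheets of laminin and collagen IV, joined by nidogen, that underlie epithelium and surround vessels, muscle and nerve. Elastic fibres hold a core of crosslinked elastin on fibrillin microfibrils. Matrix metalloproteinases cut these proteins and the Timp proteins inhibit them. In the gut, fibroblasts are the main source of interstitial matrix, with different fibroblast populations beneath the epithelium and around vessels and deeper layers.

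The RA and butyrate libraries held 61912439 and 67894477 UMIs in 10140 and 9959 barcodes. Kept cells had medians of 4712 and 5141 UMIs. The libraries shared 19 kept barcodes, with 0 among fibroblasts or Cdh5 cells. The lowest total of a kept cell was 501 UMIs (RA) and 2316 UMIs (butyrate).

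The Dpt/Scara5 group held 434 RA and 130 butyrate cells, and the Adamdec1/Tcf21 group 326 and 177, with median totals from 6971 to 8309.5 UMIs. Another 48 and 19 fibroblasts had equal sums and belong to neither group. The 5 fibroblast genes Pdgfra, Col1a1, Col1a2, Dcn and Lum, 4 of them members, summed to 17850 and 17868 CPM (UMIs per 1000000) in the Dpt/Scara5 cells and 9193 and 9781 in the Adamdec1/Tcf21 cells. In the Cdh5 cells they summed to 278 and 289. The Cdh5 group held 188 and 129 cells. The 9 endothelial markers, of which Cdh5 is one, summed to 4967 and 6659 CPM in it, against 83.3 and 82.0 in the Dpt/Scara5 and 127 and 120 in the Adamdec1/Tcf21 cells, which the gate keeps free of Cdh5. Of these cells, 82 and 27 had more UMIs of the lymphatic genes Prox1, Lyve1 and Mmrn1, and 91 and 80 had more of the blood vessel genes Plvap, Flt1 and Esam. Also in the Cdh5 group were 23 and 21 cells with an Epcam UMI, and 14 and 13 with at least 2 Col3a1 UMIs.

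Cells just outside the Col3a1 threshold, with 1 UMI of it, numbered 125 and 38, and the other 38 members made up 0.212% and 0.245% of their UMIs. Ptprc, a leukocyte gene, was seen in 66.4% and 78.9% of them. Cells just inside, with 2 UMIs, numbered 31 and 7, with 0.935% and 0.841%. Above 3 UMIs there were 754 and 312 cells with 3.42% and 3.53%, and Pdgfra, a receptor of fibroblasts, was seen in 84.0% and 84.6%. Because the threshold uses Col3a1, the level of that gene in fibroblasts is a description of the choice.

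Matrix transcripts were densest in the Dpt/Scara5 fibroblasts. The 39 genes made up 4.73% (RA) and 5.17% (butyrate) of their UMIs. The Adamdec1/Tcf21 fibroblasts had 3.08% and 3.27%, and the Cdh5 cells 0.577% and 0.632%. Single Dpt/Scara5 cells ranged from 0.281% through a median of 4.74% to 10.2% (RA), and from 1.23% through 5.16% to 9.41% (butyrate). Single Adamdec1/Tcf21 cells ranged from 0.0322% through 3.27% to 8.36%, and from 0.458% through 3.56% to 6.97%, so cells of both groups overlapped. These shares include the gate gene Col3a1. Without it the shares of summed UMIs were 4.22% and 4.41% (Dpt/Scara5), 2.68% and 2.80% (Adamdec1/Tcf21), and 0.570% and 0.620% (Cdh5).

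**Figure D1:**
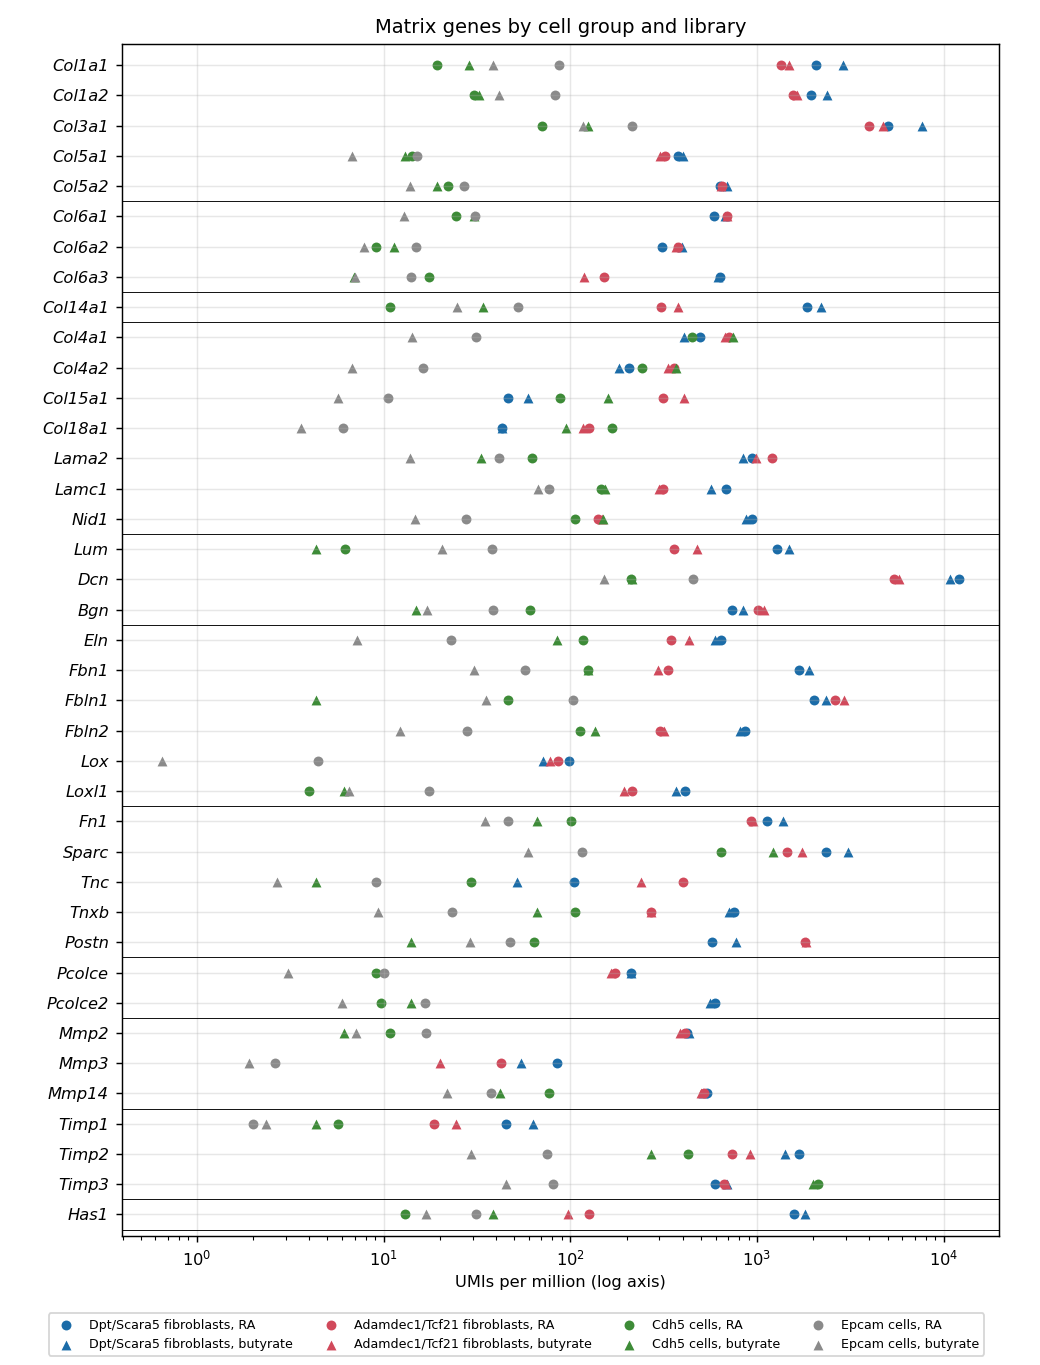
Level of each gene in UMIs per 1000000 (log axis) in the Dpt/Scara5 fibroblasts (blue), Adamdec1/Tcf21 fibroblasts (red), Cdh5 cells (green) and Epcam cells (grey), with circles for the RA and triangles for the butyrate library. Lines separate the functional groups, values resting on 3 UMIs or fewer are left out, and Timp3 is highest in the Cdh5 cells.

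Promoter sequences are shown for the 2 genes with the highest and the 2 with the lowest mean ratio between the fibroblast groups, and for the pair that share a promoter. For the single genes these are the 250 bases before the RefSeq start site (GRCm38.p6), written 5′ to 3′ on the strand of the gene. Motif matches are in capitals. Pcolce2 is at chr9:95637378-95637627 (+), Has1 at chr17:17855189-17855438 (−), Tnc at chr4:64047016-64047265 (−) and Col15a1 at chr4:47207762-47208011 (+). Col4a1 and Col4a2 lie head to head, and their annotated starts overlap by 22 bases. For this pair the windows run from 250 bases before to 50 after each start. The 78 bases common to both windows therefore include bases after the starts. They are at chr8:11312777-11312854, given on the + strand, which is that of Col4a2.
Pcolce2: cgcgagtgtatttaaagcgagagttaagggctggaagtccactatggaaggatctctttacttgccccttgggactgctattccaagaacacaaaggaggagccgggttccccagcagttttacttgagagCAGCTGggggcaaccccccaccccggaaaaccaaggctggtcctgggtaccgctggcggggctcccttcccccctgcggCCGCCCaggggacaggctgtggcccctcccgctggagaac
Has1: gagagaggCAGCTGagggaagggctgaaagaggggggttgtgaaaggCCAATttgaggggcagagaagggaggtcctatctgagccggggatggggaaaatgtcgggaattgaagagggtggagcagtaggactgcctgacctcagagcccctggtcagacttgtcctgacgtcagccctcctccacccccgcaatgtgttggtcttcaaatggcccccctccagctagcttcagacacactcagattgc
Tnc: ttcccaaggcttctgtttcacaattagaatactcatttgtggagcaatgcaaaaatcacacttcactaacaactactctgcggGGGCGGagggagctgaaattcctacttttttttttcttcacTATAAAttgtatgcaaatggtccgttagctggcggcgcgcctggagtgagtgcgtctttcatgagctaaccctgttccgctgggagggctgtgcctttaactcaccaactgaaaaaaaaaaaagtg
Col15a1: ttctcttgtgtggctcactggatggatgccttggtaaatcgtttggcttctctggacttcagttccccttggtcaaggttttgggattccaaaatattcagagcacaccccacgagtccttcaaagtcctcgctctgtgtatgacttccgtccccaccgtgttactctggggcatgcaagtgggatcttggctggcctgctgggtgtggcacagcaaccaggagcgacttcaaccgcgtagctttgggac
Col4a1 and Col4a2 shared: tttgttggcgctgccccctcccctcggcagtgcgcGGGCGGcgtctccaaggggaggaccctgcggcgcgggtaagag
Motifs searched were the CCAAT box (CCAAT), the GC box (GGGCGG) and an E-box (CAGCTG) on both strands, and the TATA box (TATAAA) on the strand of the gene. Matches were counted in the 300 bases from 250 before to 50 after the start, for 28 of the 39 genes and 27025 genes in all. Of the 28 genes, 18 (64.3%) held the GC box against 35.9% of all genes, and 8 (28.6%) held the E-box against 16.1%. CCAAT was in 10 (35.7%) against 37.9%, and TATAAA in 3 (10.7%) against 8.88%, namely Col3a1, Mmp3 and Tnc. Among the genes higher in Dpt/Scara5 fibroblasts 8 had a window, with the E-box in 3 (Fbn1, Has1 and Pcolce2) and the GC box in 5. Among the 4 higher in Adamdec1/Tcf21 fibroblasts the E-box was in 0 and the GC box in 2. A match describes the letters and is not evidence of binding.

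Which matrix genes differ between the fibroblast groups was asked in each library on its own. A gene was counted where the ratio of CPM was at least 2-fold the same way in both libraries, over genes with at least 50 summed UMIs in each. By that rule 10 of 39 genes (25.6%) were higher in the Dpt/Scara5 fibroblasts, against 4.38% of all 6761 genes compared. Another 4 (10.3%) were higher in the Adamdec1/Tcf21 fibroblasts, against 5.01%. As the list was chosen with earlier results of these data known, these shares describe the list and are not a test of it. The median log2 ratio of the 39 was 0.31 (RA) and 0.53 (butyrate), beside -0.05 and -0.02 over all genes. Taken singly, the libraries had 13 and 11 genes at least 2-fold above 1 (6.16% and 5.91% of all genes) and 4 and 4 below (8.36% and 7.44%).

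The sharpest divide was Pcolce2, encoding an enhancer of procollagen C-proteinase. It stood at 596 and 559 CPM in the Dpt/Scara5 fibroblasts of the RA and butyrate library, with UMIs in 373 of 434 and 113 of 130 cells. The Adamdec1/Tcf21 fibroblasts held only 3 and 2 UMIs, each in a cell of its own. The ratio was 488 (95% counting interval 167 to 2368) for RA and 388 (107 to 3211) for butyrate. It rests on those few UMIs and was 420 and 707 with the Pdgfra gate and 88.1 and 83.1 in thinned cells, and no order between the libraries is read from it. Its relative Pcolce, with the same kind of activity, had 212 and 212 CPM in the Dpt/Scara5 cells and 173 and 164 in the Adamdec1/Tcf21 cells.

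Has1, a synthase of the polysaccharide hyaluronan, came next. It had 1581 and 1815 CPM in the Dpt/Scara5 fibroblasts against 125 and 97.2 in the Adamdec1/Tcf21 fibroblasts. The ratios were 12.6 (11.3 to 14.2) and 18.7 (15.7 to 22.4). Both values of one group lay far above both of the other, though Has1 was seen in only 303 of 434 and 89 of 130 Dpt/Scara5 cells. Its relative Has2 differed from this, with 61.6 and 115 CPM in the Dpt/Scara5 and 65.1 and 36.7 CPM in the Adamdec1/Tcf21 cells.

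Among the collagens of the interstitium the fibril-forming chains varied little and the associated ones more. Col14a1, the fibril-associated collagen XIV, had 1856 and 2188 CPM in the Dpt/Scara5 cells and 306 and 378 in the Adamdec1/Tcf21 cells. Its ratios were 6.06 (5.62 to 6.54) and 5.79 (5.27 to 6.37). The 5 fibrillar chains had ratios from 0.979 (Col5a2) to 1.54 (Col1a1) for RA and from 1.09 (Col5a2) to 1.94 (Col1a1) for butyrate, none of them past 2-fold. Col1a1 had 2062 and 2881 CPM in the Dpt/Scara5 and 1337 and 1488 in the Adamdec1/Tcf21 cells. Col1a2, its partner in type I collagen, had 1943 and 2382 against 1567 and 1646. Col3a1, the gate gene, had 5047 and 7605 against 3956 and 4749. Both type V chains were lower, with Col5a1 between 303 and 401 CPM and Col5a2 between 634 and 693 CPM across the 2 fibroblast groups and libraries.

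The 3 chains of collagen VI, which assemble together into beaded filaments, did not follow each other. Col6a3 had 633 and 617 CPM in the Dpt/Scara5 cells and 151 and 118 in the Adamdec1/Tcf21 cells, ratios of 4.18 (3.75 to 4.68) and 5.23 (4.40 to 6.23). Col6a1 had ratios of 0.852 and 0.971, and Col6a2 of 0.827 and 1.07. The neighbours Col6a1 and Col6a2 lie 85162 bases apart on chromosome 10, whereas Col6a3 is on chromosome 1. Among the collagen genes outside the list, Col6a5, another chain of the family, went the opposite way, with 197 and 173 CPM in the Adamdec1/Tcf21 cells and 11 UMIs and 1 UMI in all in the Dpt/Scara5 cells. Its ratios were 0.0155 (0.00768 to 0.0279) and 0.00510 (0.000129 to 0.0287).

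Basement membrane genes held members of both kinds. Nid1, the linker between laminin and collagen IV, had 942 and 874 CPM in the Dpt/Scara5 fibroblasts and 140 and 148 in the Adamdec1/Tcf21 fibroblasts, ratios of 6.73 (6.02 to 7.54) and 5.89 (5.06 to 6.88). The multiplexin collagens were the reverse. Col15a1 had 46.6 and 59.1 CPM in the Dpt/Scara5 and 314 and 408 in the Adamdec1/Tcf21 cells, ratios of 0.148 (0.125 to 0.176) and 0.145 (0.111 to 0.187). Col18a1, whose C-terminal fragment is endostatin, had 43.0 and 43.2 against 126 and 117 CPM, ratios of 0.342 and 0.370.

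The main collagen IV chains leaned the same way without reaching 2-fold. Col4a1 had 495 and 407 CPM in the Dpt/Scara5 and 703 and 675 in the Adamdec1/Tcf21 cells (ratios 0.704 and 0.603). Col4a2, which shares its promoter, had 205 and 182 against 358 and 335 (0.575 and 0.542). Of the laminin chains, Lama2 had 940 and 837 against 1209 and 984 CPM (0.778 and 0.851), while Lamc1 was higher in the Dpt/Scara5 cells, with ratios of 2.17 and 1.90.

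Small leucine-rich proteoglycans also divided. Dcn (decorin) had the highest level of the 39 in both groups, 12077 and 10765 CPM in the Dpt/Scara5 and 5433 and 5751 in the Adamdec1/Tcf21 cells. Its ratios, 2.22 (2.18 to 2.27) and 1.87 (1.82 to 1.93), passed 2-fold in the RA library only. Lum (lumican), 46985 bases from Dcn on chromosome 10, had 1284 and 1482 against 359 and 478 CPM, an RA ratio of 3.58 (3.33 to 3.85) and a butyrate interval of 2.83 to 3.40. Bgn (biglycan) was lower in the Dpt/Scara5 cells, 734 and 841 against 1010 and 1094 CPM. All 3 proteoglycans were well measured in both groups, the lowest being Lum in the Adamdec1/Tcf21 cells.

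In the elastic fibre group, Fbn1 (fibrillin-1) had 1672 and 1893 CPM in the Dpt/Scara5 and 334 and 293 in the Adamdec1/Tcf21 cells. The interval of the RA ratio was 4.65 to 5.39, and the butyrate ratio was 6.46 (5.81 to 7.20). Fbln2 (fibulin-2) had 865 and 809 against 303 and 316 CPM, ratios of 2.85 and 2.56. Fbln1, a related fibulin, was instead somewhat higher in the Adamdec1/Tcf21 cells, 2612 and 2931 against 2027 and 2339 CPM. Elastin itself (Eln) had ratios of 1.86 and 1.37. The crosslinking enzymes did not pass 2-fold in either library, with Loxl1 at 1.93 and 1.91 and Lox at 1.15 (0.969 to 1.37) and 0.918 (0.680 to 1.24).

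Adhesive glycoproteins gave the other 2 genes of the Adamdec1/Tcf21 side. Postn (periostin) had 1806 and 1830 CPM there and 577 and 769 in the Dpt/Scara5 cells, ratios of 0.319 (0.303 to 0.337) and 0.420 (0.389 to 0.454). Tnc (tenascin-C) had 403 and 240 against 105 and 52.0 CPM, ratios of 0.261 and 0.216. The other tenascin, Tnxb (tenascin-X), which binds collagen fibrils, was higher in the Dpt/Scara5 cells, 748 and 709 against 271 and 269 CPM (2.76 and 2.63). Sparc, a collagen-binding glycoprotein, had 2339 and 3053 against 1439 and 1737 CPM. Fn1 (fibronectin) had 1137 and 1379 against 932 and 957 CPM, and neither gene reached 2-fold.

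Of the proteases and inhibitors only Timp1 was counted, from 162 and 72 UMIs in the Dpt/Scara5 cells and 46 and 34 in the Adamdec1/Tcf21 cells, ratios of 2.40 (1.72 to 3.41) and 2.59 (1.70 to 4.02). It lost its place with Pdgfra in place of Col3a1 in the gate, where the RA ratio was 1.79. Timp2 had 1684 and 1409 against 731 and 917 CPM and passed 2-fold in the RA library only (2.30 against 1.54). Timp3 was near equal, with ratios of 0.897 and 1.02. Among the metalloproteinases Mmp2 (1.02 and 1.12) and the membrane-bound Mmp14 (1.04 and 1.03) were near equal. Mmp3 (stromelysin-1) had ratios of 1.98 and 2.71 from few cells, 29 of 434 and 13 of 130 Dpt/Scara5 cells and 22 of 326 and 8 of 177 Adamdec1/Tcf21 cells.

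**Figure D2:**
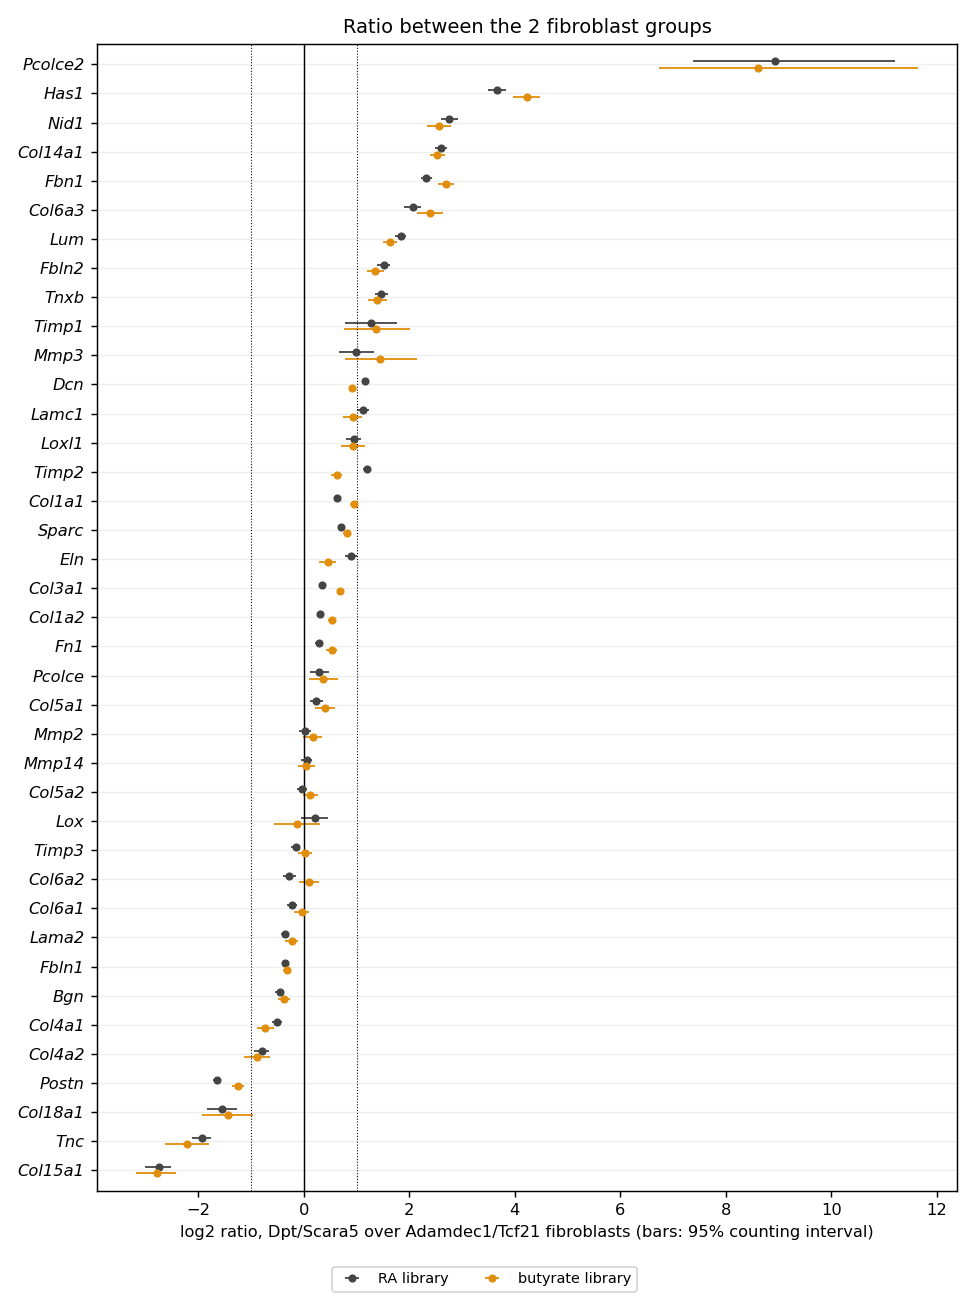
Log2 ratio of UMIs per 1000000, Dpt/Scara5 over Adamdec1/Tcf21 fibroblasts, for the RA (black) and butyrate (orange) library, with 95% counting intervals as bars and dotted lines at 2-fold. Genes are ordered by their mean log2 ratio, from Pcolce2 at 8.93 and 8.60 down to Col15a1 at -2.75 and -2.79.

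Cells of other types in the fibroblast gate differed between the groups. The 8 mural and smooth muscle markers, among them Rgs5, Myh11 and Acta2, summed to 624 and 1071 CPM in the Adamdec1/Tcf21 cells and 65.5 and 86.4 in the Dpt/Scara5 cells. Of 55 and 41 cells in a mural gate, 30 and 26 were in the Adamdec1/Tcf21 group. With cells that held Ptprc or marker UMIs of mural, mesothelial, adipose or glial cells removed, 377 and 108 Dpt/Scara5 and 226 and 115 Adamdec1/Tcf21 cells were left. Then 11 genes were higher in the former and 4 in the latter, beside 10 and 4 without that removal. No share of all genes is given for the groups after removal.

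The divide was also seen cell by cell after each cell was thinned to 1000 UMIs. A Pcolce2 UMI was then present in 38.4% and 34.6% of Dpt/Scara5 cells, in 0.617% and 0.565% of Adamdec1/Tcf21 cells and in 1.22% and 0.574% of Epcam cells. Unthinned, the shares were 85.9% and 86.9% of Dpt/Scara5 and 0.920% and 1.13% of Adamdec1/Tcf21 cells. Unthinned, Epcam cells with fewer than 2 Col3a1 UMIs had 0.698% and 0.635% (11 of 1575 and 13 of 2046 cells), and those with at least 2 had 40.3% and 47.8%. The Adamdec1/Tcf21 values rest on 3 and 2 cells, so expression there was not detectable apart from such low shares. Has1 was in 50.2% and 52.3% against 6.79% and 6.21%, where Epcam cells had 1.52% and 0.669%. Postn was in 34.0% and 48.5% against 70.4% and 73.4%, and Col15a1 in 4.17% and 5.38% against 30.2% and 39.5%. Thinning left out 2 Dpt/Scara5, 2 Adamdec1/Tcf21, 4 Cdh5 and 49 Epcam cells of the RA library and 0 of the butyrate library.

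**Figure D3:**
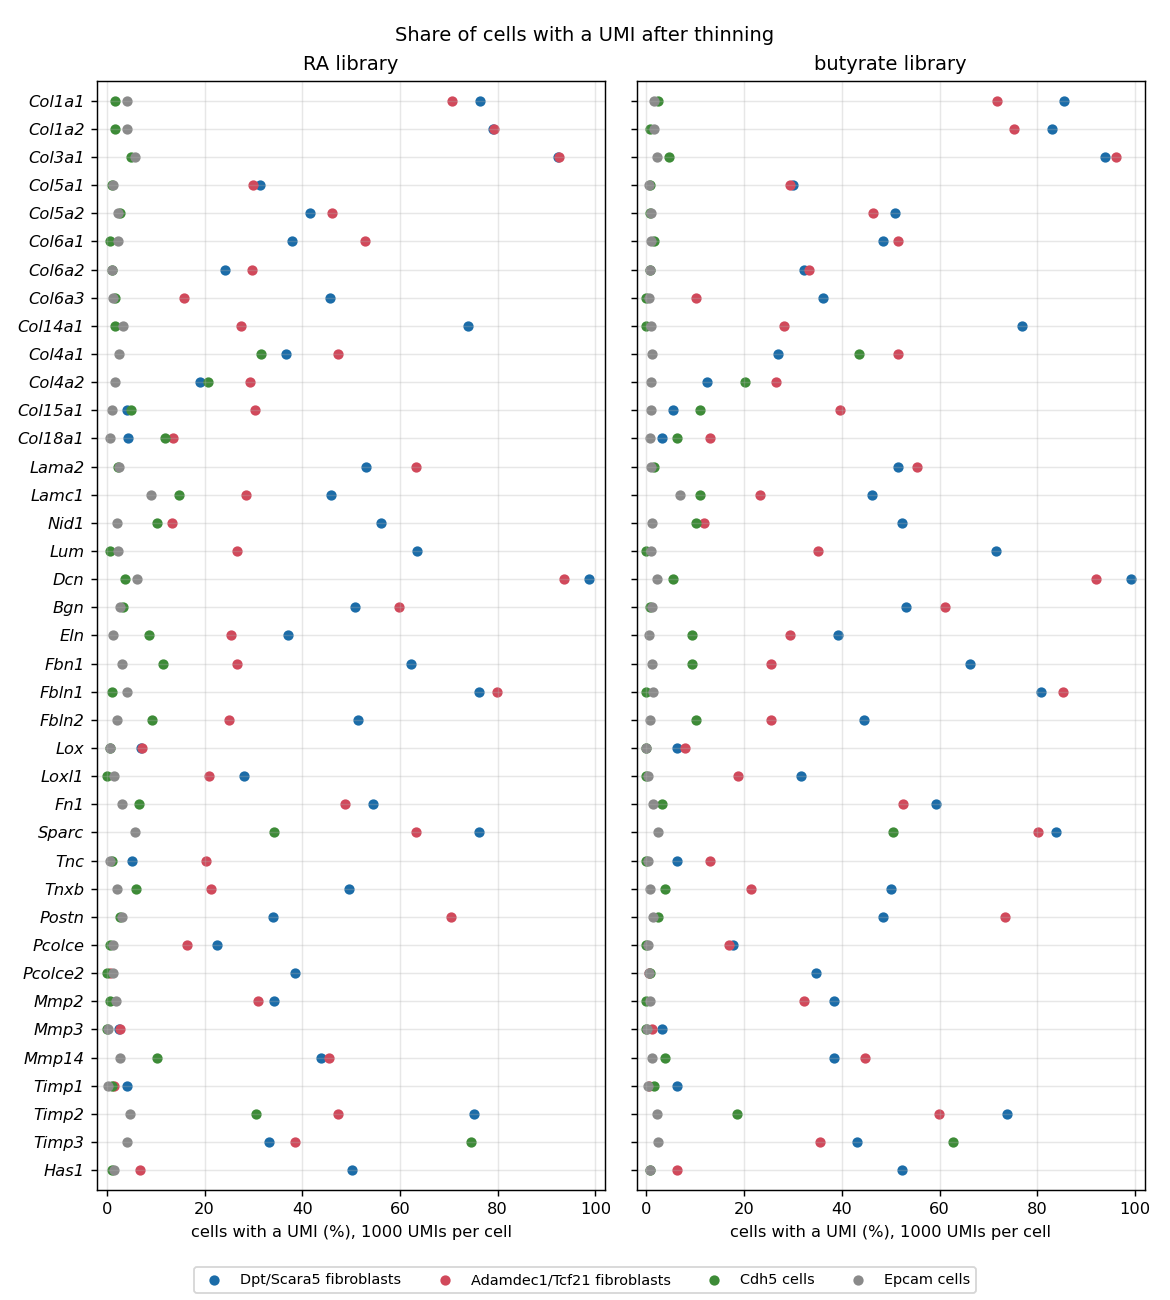
Share of cells with at least 1 UMI of each gene after thinning to 1000 UMIs per cell, by library, in the Dpt/Scara5 fibroblasts (blue), Adamdec1/Tcf21 fibroblasts (red), Cdh5 cells (green) and Epcam cells (grey). Dcn is in 98.6% and 99.2% of Dpt/Scara5 cells, whereas Pcolce2 sits apart in those cells and Timp3 is most frequent in the Cdh5 cells.

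Other matrix genes, from a list of 68 of which 50 had enough UMIs in both libraries, gave 7 (14.0%) higher in the Dpt/Scara5 and 6 (12.0%) higher in the Adamdec1/Tcf21 cells, beside 4.38% and 5.01% of all genes. The highest ratios were Col8a1 (29.9 and 21.0), a short-chain collagen, Mfap5 (11.8 and 10.2), a microfibril protein, and Adamts5 (9.98 and 12.0), an aggrecan-cutting protease. Lowest beside Col6a5 were Col12a1 (0.138 and 0.116), a second fibril-associated collagen, and Col4a5 (0.267 and 0.157), a minor collagen IV chain. The fibril-associated collagens XIV and XII thus marked opposite fibroblast groups in both libraries. Of 11 matrix receptors compared, 2 (18.2%) were higher in the Dpt/Scara5 and 1 (9.09%) in the Adamdec1/Tcf21 cells, beside those same shares. Cd44, the hyaluronan receptor (3.18 and 4.36), and Itga5, a fibronectin receptor chain (intervals 2.72 to 4.56 and 1.60 to 3.69), were the higher pair. Itga1, a collagen receptor chain, was lower (0.172 and 0.0807). None of 13 genes of transforming growth factor beta signalling passed 2-fold in both libraries.

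The next comparison asked how the matrix genes of each fibroblast group differed between the butyrate-fed mouse and the mouse with arthritis. In the Dpt/Scara5 fibroblasts 0 of 39 genes were at least 2-fold higher in the butyrate library (0.87% of all genes were) and 1 was at least 2-fold lower (2.56% of all genes). In the Adamdec1/Tcf21 fibroblasts, where 38 genes had enough UMIs, 0 were higher (0.939%) and 1 lower (2.01%). The median log2 ratios were 0.05 and 0.00, beside -0.02 and -0.03 over all genes. Neither count of genes stands apart from the share of all genes.

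Tnc was the gene lower in the Dpt/Scara5 fibroblasts of the butyrate library, 105 CPM in RA and 52.0 in butyrate, a ratio of 0.494 (0.369 to 0.652). It came from 52 of 434 and 20 of 130 cells, and 1 cell gave 16.9% of the RA UMIs and 1 cell 15.3% of the butyrate UMIs. The share of thinned cells with a Tnc UMI did not follow it, at 5.09% and 6.15%. In the Adamdec1/Tcf21 fibroblasts, Tnc had 403 and 240 CPM, a ratio of 0.597 (0.526 to 0.677), and was seen in 20.4% and 13.0% of thinned cells. The ratio in the Dpt/Scara5 cells lay on either side of 2-fold with the setting. It was 0.410 with the Pdgfra gate, 0.501 with scaling by the median gene, 0.513 with the Epcam level subtracted and 0.665 in thinned cells.

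Mmp3 was the gene lower in the Adamdec1/Tcf21 fibroblasts, 42.7 CPM in RA and 20.2 in butyrate, a ratio of 0.472 (0.299 to 0.722). Only 105 and 28 UMIs stood behind it, and a single cell held 60.7% of the butyrate UMIs. In the Dpt/Scara5 cells its ratio was 0.645 (0.483 to 0.850), and 1.05 without cells holding other cell types' markers. With those cells removed from the Adamdec1/Tcf21 group, too few Mmp3 UMIs remained for the count of genes past 2-fold, and the ratio was 0.345.

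Of the smaller ratios above 1 in the Dpt/Scara5 fibroblasts, the highest was that of the gate gene. Col3a1 had a ratio of 1.51 (1.47 to 1.55), also 1.51 when cells were chosen by Pdgfra, and Col1a1 one of 1.40 (1.34 to 1.46). Timp1 lay between them at 1.41 (1.05 to 1.87), and Postn (1.33) and Sparc (1.31) followed. All 5 fibrillar chains, Col3a1 among them, were above 1 in these cells, at 1.06 to 1.51, and 3 of 5 in the Adamdec1/Tcf21 cells, at 0.942 to 1.20. Over all genes compared, 4118 of 8618 and 3885 of 8410 were above 1. The highest ratios in the Adamdec1/Tcf21 cells were those of Lum (1.33), Timp1 (1.31, 0.815 to 2.08), Col15a1 (1.30), Timp2 (1.25) and Eln (1.25). Timp1 was on the other side of 1 in thinned cells, at 0.366 from 1 butyrate and 5 RA UMIs.

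Among the other matrix genes, Serpinh1 and P4ha1 were near the top in both fibroblast groups, while P4ha2, another prolyl 4-hydroxylase chain, was among the lowest in the Adamdec1/Tcf21 cells (0.715, 0.409 to 1.21). Serpinh1, the collagen chaperone, had 490 and 874 CPM in the Dpt/Scara5 cells of the RA and butyrate library and 440 and 709 in the Adamdec1/Tcf21 cells. The ratios were 1.78 (1.65 to 1.93) and 1.61 (1.48 to 1.76). P4ha1, a chain of prolyl 4-hydroxylase, had 128 and 197 CPM and 133 and 199 CPM, a ratio of 1.55 (1.31 to 1.82) and an interval of 1.28 to 1.77. In the Cdh5 cells the 2 genes had ratios of 1.80 and 2.15. None of 51 other matrix genes compared was at least 2-fold higher in the Dpt/Scara5 cells, and 1 was lower (1.96%), Col4a5 at 0.475 (0.289 to 0.747), beside 0.87% and 2.56% of all genes.

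Has2 had the highest ratio of the other matrix genes in the Dpt/Scara5 cells, 1.87 (1.50 to 2.34), and the lowest in the Adamdec1/Tcf21 cells, 0.564 (0.403 to 0.778). The lowest ratios after Col4a5 in the Dpt/Scara5 cells were Mmp11 (0.540) and Loxl3 (0.586), from 16 and 19 butyrate UMIs. In the Adamdec1/Tcf21 cells 0 of 52 passed 2-fold in either direction, beside 0.939% and 2.01% of all genes. The extremes there, beside Has2, Serpinh1 and P4ha1, were Col8a1 (1.72) and Tgfbi (0.575). Of the transforming growth factor beta genes, 0 of 13 passed 2-fold in either fibroblast group, and the lowest in the Dpt/Scara5 cells was Tgfbr3, the betaglycan receptor, at 0.568.

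Several marker lists moved with the library. The dissociation response genes, among them Fos, Jun, Egr1 and Hspa1a, summed to 17794 CPM in RA and 25394 in butyrate in the Dpt/Scara5 cells, and to 30474 and 38186 in the Adamdec1/Tcf21 cells. The 6 adipocyte markers summed to 120 and 0.881 CPM in the Dpt/Scara5 cells and 419 and 0 in the Adamdec1/Tcf21 cells, where all 6 were at 0 in the butyrate library. Of 1711 Adipoq UMIs in RA fibroblasts, 1511 were in cells with equal sums, which are in neither group. Those cells do enter the fibroblasts set against the Cdh5 cells below. Mesothelial markers summed to 60.0 and 13.2 CPM, and to 24.0 and 6.48. The part of these lists in the ratios between libraries was not tested. The dissociation response sum was also higher in the Adamdec1/Tcf21 than in the Dpt/Scara5 cells of each library. Its part in the ratios between the fibroblast groups was not tested either.

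**Figure D4:**
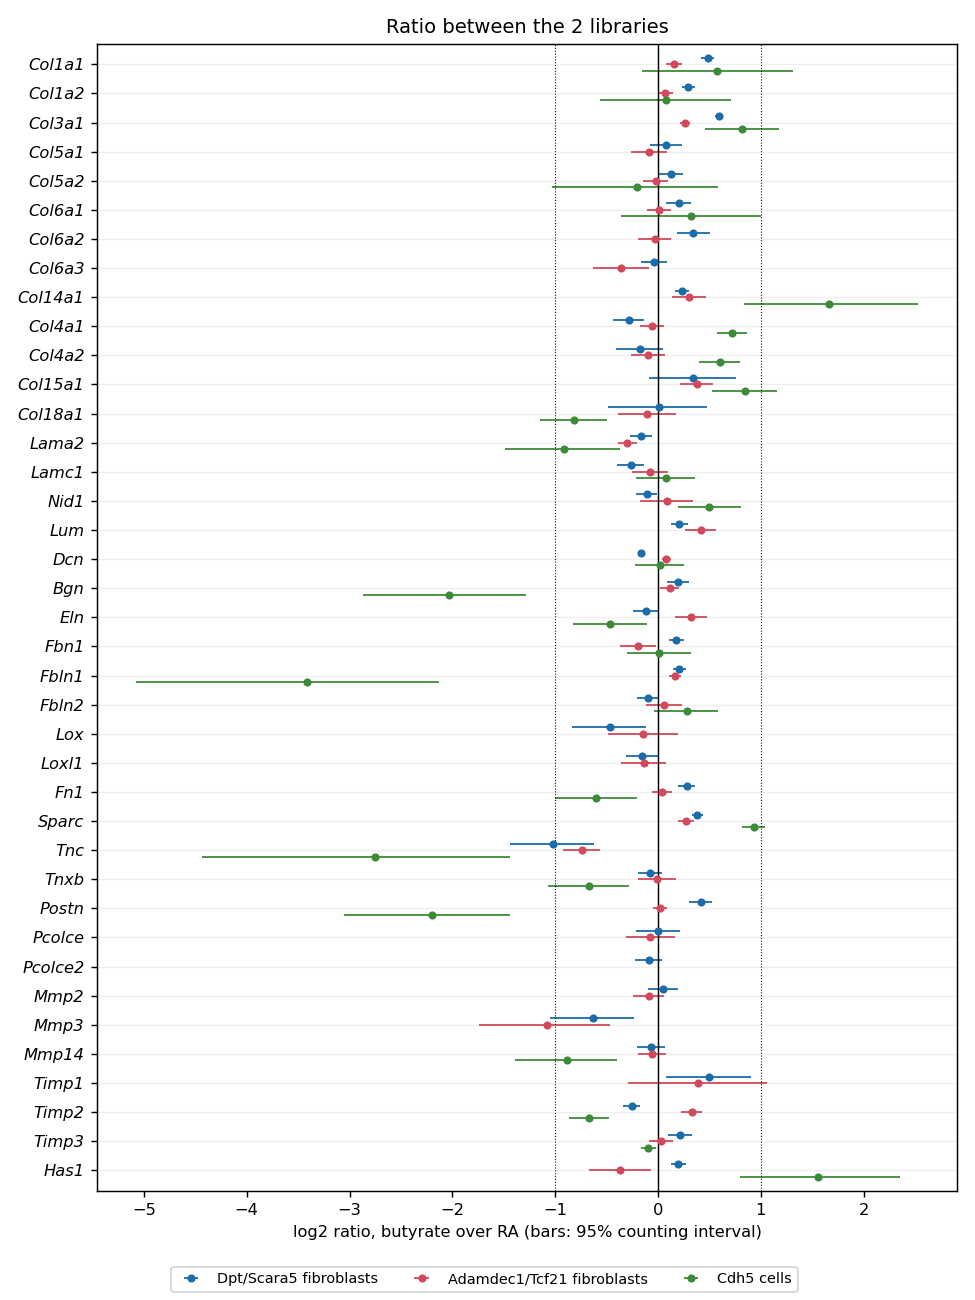
Log2 ratio of UMIs per 1000000, butyrate over RA library, in the Dpt/Scara5 fibroblasts (blue), Adamdec1/Tcf21 fibroblasts (red) and Cdh5 cells (green), with 95% counting intervals as bars, dotted lines at 2-fold and only genes with 50 summed UMIs. Fibroblast ratios lie within 2-fold except Tnc in the Dpt/Scara5 and Mmp3 in the Adamdec1/Tcf21 cells, while those of the Cdh5 cells spread from Fbln1 at 0.0938 to Col14a1 at 3.16 as ratios.

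In the Cdh5 cells, matrix transcripts were mostly those of the basement membrane and of Timp3. Against all fibroblasts of the same library, 1 of 39 genes was at least 2-fold higher in both libraries (8.73% of all genes were) and 33 were lower (10.5% of all genes). Col3a1 is among the 33, where the fibroblast gate puts it. All fibroblasts here include the cells with equal sums. Timp3, an inhibitor that binds to the matrix, was the higher one. It had 2113 and 1983 CPM, seen in 167 of 188 and 104 of 129 cells, and ratios to the fibroblasts of 3.70 (3.53 to 3.87) and 2.77 (2.61 to 2.95). In RA the cells with more lymphatic genes had 3097 CPM and those with more blood vessel genes 1622. Timp3 overlaps Syn3 on the opposite strand, and whether counting used the strand is not given in the sources used here.

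The 5 genes not 2-fold apart the same way in both libraries were Col4a1, Col4a2, Col15a1, Col18a1 and Sparc. Col4a1 had 450 and 741 CPM in the Cdh5 cells and ratios to the fibroblasts of 0.830 and 1.34, and Col4a2 242 and 368 CPM and ratios of 0.968 and 1.42. Col18a1 had 166 and 94.3 CPM, with ratios on both sides of 1, 2.09 (1.80 to 2.41) in RA and 0.883 (0.700 to 1.11) in butyrate. Col15a1 had 88.5 and 159 CPM (0.630 and 0.634), and Sparc 642 and 1224 CPM (0.343 and 0.501). Within the Cdh5 cells of the RA library these genes separated vessel types. Blood vessel cells had 1293 CPM of Sparc, 707 of Col4a1 and 176 of Col15a1, and lymphatic cells 48.7, 257 and 9.22 CPM.

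Col18a1 was the reverse, with 28.4 CPM in the blood vessel and 354 in the lymphatic cells of the RA library. Timp2 (95.7 and 870 CPM) and Tnxb (11.8 and 232 CPM) were also lower in the blood vessel cells, and Fbln2 (222 and 13.2 CPM) was higher. The butyrate library had only 27 lymphatic cells and gives no second value. Its 80 blood vessel cells had 2010 CPM of Sparc, 1120 of Col4a1, 266 of Col15a1, 26.4 of Col18a1 and 90.8 of Timp2.

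Remaining members were low in the Cdh5 cells. The other high levels were Timp2 (428 and 269 CPM), Dcn (212 and 215), Lamc1 (146 and 154), Nid1 (106 and 150) and Fbln2 (112 and 136). Dcn was seen in 21 of 188 and 16 of 129 cells, and 1 cell gave 35.8% and 32.5% of its UMIs. Its ratios to the fibroblasts were 0.0246 and 0.0278. Mmp3 had 0 UMIs in both libraries. Of 12 matrix receptors compared, Itga1 (5.48 and 5.62) and the laminin receptor chain Itga6 were higher in the Cdh5 cells than in the fibroblasts (16.7%, beside 8.73% of all genes).

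Between the libraries, 28 of the 39 genes had enough UMIs in the Cdh5 cells, of which 2 were at least 2-fold higher in butyrate (2.36% of all genes) and 4 lower (4.65%). The 2 higher genes were fibroblast genes in 1 cell each. All 44 butyrate UMIs of Has1 (ratio 2.94) lay in 1 cell, and 97.4% of those of Col14a1 (3.16) did. The 4 lower ones also rested on few cells. Fbln1 (0.0938) had 82 RA UMIs of which 56.1% were in 1 cell, Tnc (0.148) had 52 in 12 cells, Postn (0.218) 113 in 18 and Bgn (0.244) 107 in 31.

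The count therefore was repeated without cells that held Epcam or at least 2 Col3a1 UMIs, which left 155 and 97 cells. Then 0 genes were higher and 3 lower, with no share of all genes given for that choice of cells. The 3 were Bgn (0.332), Col18a1 and Fn1, of which only Bgn was among the 4 above. Has1 had a ratio of 0.459, Col14a1 of 0.917, Postn of 0.841 and Tnc of 0.0805, the last with too few UMIs to be counted. Epithelial markers summed to 957 and 233 CPM in the whole Cdh5 group.

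Of the 7 basement membrane genes, 5 had ratios above 1 in the Cdh5 cells (as did 3782 of all 7636 genes compared). The 2 below were Lama2 at 0.532 (0.358 to 0.775) and Col18a1 at 0.567 (0.451 to 0.710). Lamc1 was at 1.05 (0.865 to 1.28). The others were 1.65 (1.49 to 1.82) for Col4a1, 1.52 (1.32 to 1.74) for Col4a2, 1.80 (1.44 to 2.24) for Col15a1 and 1.42 (1.14 to 1.75) for Nid1, beside 1.91 (1.76 to 2.06) for Sparc. The mix of vessel types differed between the libraries, and lymphatic markers summed to 10990 CPM in RA and 6056 in butyrate. Within cells with more blood vessel genes the ratios were 1.59 for Col4a1, 1.40 for Col4a2, 1.51 for Col15a1, 1.71 for Nid1 and 1.56 for Sparc. Timp3 went from 0.938 (0.890 to 0.989) in all Cdh5 cells to 1.27 (1.18 to 1.37) in blood vessel cells, Col18a1 from 0.567 to 0.929 and Lama2 from 0.532 to 0.981. After thinning to 1000 UMIs, Col4a2 (0.977, 37 and 54 UMIs) and Nid1 (0.998, 14 and 20 UMIs) were no longer above 1. Under the stricter gate Lama2 had a ratio of 2.04.

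Epcam cells set the background of matrix RNA. The 39 genes made up 0.203% of the UMIs of 1694 RA cells and 0.0947% of those of 2092 butyrate cells. As a share of its level in the fibroblasts, a gene had a median of 5.15% (3.55% to 15.8%) in RA and 2.16% (0.889% to 16.5%) in butyrate. Most of this lay in few cells: in a split chosen after the data were seen, 119 RA and 46 butyrate Epcam cells with at least 2 Col3a1 UMIs held 90.7% and 84.3% of the UMIs. Their median totals were 11357 and 10879 UMIs. The other 1575 and 2046 cells had matrix shares of 0.0209% and 0.0153%.

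In the Epcam cells 38 of 39 genes were lower in the butyrate library, beside 7182 of all 14115 genes compared. At least 2-fold lower were 21 (4.46% of all genes) and at least 2-fold higher 0 (1.15%), with a median log2 ratio of -1.10. These are the ratios of that background, most of which lay in the 119 RA and 46 butyrate cells with at least 2 Col3a1 UMIs. They were not taken as epithelial expression. How far they follow the number of such cells was not tested. Lamc1, the laminin gamma 1 chain, stood apart from the rest, with 76.9 and 67.3 CPM, a UMI in 33.3% and 31.5% of Epcam cells and a ratio of 0.875 (0.813 to 0.941). After thinning it was in 9.06% and 6.79% of Epcam cells. In cells of a B cell gate (at least 2 Cd79a UMIs and no Cd3e) it had 168 and 140 CPM, 34.6% and 34.4% of its fibroblast level, where the median member had 2.76% and 0.939%.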

How the data were processed

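Single-cell libraries were made with 3' droplet chemistry (Chromium v3.1), per the labels' protocols. Per the file headers, the deposited values are raw, unnormalized counts of UMIs for each gene in each barcode. The file headers name Cell Ranger 7.1.0. The submitters' processing notes name Cell Ranger 6.0.1, Seurat 4.0.3 and 4.0.4 and the genome mm10. Whether intronic reads were counted is not given in the sources used here, and it would raise counts of long genes.

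A barcode was kept from 500 UMIs and 250 genes upward if no more than 25% of its UMIs were mitochondrial. No doublet caller was run. The fibroblast gate removed cells with an Epcam or Cdh5 UMI and no other doublets, and alternatives removed cells with other cell types' markers. UMIs were summed per gene, library and cell group, and given per 1000000 UMIs of the group (CPM), with exact Poisson intervals. A ratio of CPM carries the exact conditional binomial 95% interval, and a share of cells the exact Clopper-Pearson one, and both cover counting error only. Genes with at least 50 summed UMIs were compared, and at least 2-fold was counted. The calculation was tested on simulated data. Transcripts were counted at their 3' ends, so levels were not scaled by gene length.

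Fixed alternatives changed the mitochondrial limit, UMI floor, depth per cell, summary over cells, scaling, background, UMI minimum per gene and gates. The genes and lists were chosen with earlier results of these data known. All 39 genes are accounted for; those past 2-fold or among the 10 highest of a cell group are given in each library, except that those lower in Cdh5 or Epcam cells are given mostly as counts, as are the 3 highest and 3 lowest of the other matrix genes. Receptor and signalling genes, and comparisons among vessel types, were named after their values were seen. Gene positions are from GENCODE M21 (GRCm38) and promoters from RefSeq (GRCm38.p6). Python 3.11.15, numpy 2.4.6, scipy 1.17.1 and pandas 2.3.3 were used.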

Additional observations from a re-analysis of the deposited data

Results flagged for a closer look

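Some genes had ratios between the libraries (butyrate over RA) that lay on opposite sides of 1 in different cell groups, with intervals that exclude 1 in each. These differences between cell groups were not tested. Col4a1 had 1.65 in the Cdh5 cells and 0.822 in the Dpt/Scara5 fibroblasts. Timp2 had 1.25 in the Adamdec1/Tcf21 fibroblasts, 0.837 in the Dpt/Scara5 fibroblasts and 0.628 in the Cdh5 cells. For the hyaluronan synthases, Has2 had 1.87 in the Dpt/Scara5 and 0.564 in the Adamdec1/Tcf21 fibroblasts, and Has1 had 1.15 and 0.776, with 2.94 in the Cdh5 cells, where 1 cell held all butyrate UMIs. Without cells holding other cell types' markers, the Has1 ratio in the Adamdec1/Tcf21 cells was 1.13.

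Other genes were above 1 in fibroblasts and below 1 in the Cdh5 cells, where they are low and, apart from Fn1, rest on few cells. Bgn had 1.15 in the Dpt/Scara5 fibroblasts, 1.08 in the Adamdec1/Tcf21 fibroblasts and 0.244 in the Cdh5 cells. For Fbln1 the values were 1.15, 1.12 and 0.0938, and for Col8a1 1.21, 1.72 and 0.224. Fn1 had 1.21 in the Dpt/Scara5 fibroblasts and 0.661 in the Cdh5 cells, and Postn had 1.33 and 0.218. Unthinned, Fn1 was seen in 35.6% of RA Cdh5 cells. Under the stricter Cdh5 gate Fn1 and Bgn were counted as at least 2-fold lower, and Fbln1 and Postn were not.

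Fn1, Timp2 and Timp1 had higher CPM in a macrophage gate (C1qa and Csf1r, 118 RA and 97 butyrate cells) than in Epcam cells. No comparison used this gate, and 13 and 14 of its cells also held an Epcam UMI. For these genes the lower bound of the level was over 2-fold the upper bound in the Epcam cells in both libraries. Other members were also above the Epcam level by less, such as Mmp14 at 80.4 and 125 CPM against 37.6 and 21.8. Fn1 had 770 CPM (RA) and 348 CPM (butyrate), Timp2 had 256 and 226, and Timp1 had 14.5 and 16.3.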

How the results depend on the processing

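Of the counts of genes past 2-fold recomputed under each alternative, 97 were within 1.5 times the reported count and 9 were not. Between the fibroblast groups, 9 to 12 genes were higher in the Dpt/Scara5 cells and 4 in the Adamdec1/Tcf21 cells under every alternative run. Against fibroblasts, 32 to 34 genes were lower and 1 higher in the Cdh5 cells. Shares of all genes are given for the reported counts only, not for the alternatives. The counts that moved were those between the libraries, and some that did not move changed genes. Thinned cells kept the genes of the unthinned comparison, so their ratios can rest on a few UMIs. There, the 1 gene lower in the Dpt/Scara5 cells was Mmp3 (4 and 39 UMIs) and not Tnc, and the 2 higher in the Cdh5 cells were Col15a1 and Sparc, with 0 shared. Genes lower in butyrate in the Dpt/Scara5 cells were 0 with median ratio scaling and 0 with the Epcam level subtracted. In the Adamdec1/Tcf21 cells they were 2 in thinned cells, Timp1 joining Mmp3, and 0 without cells holding other cell types' markers. In the Cdh5 cells they were 7 in thinned cells and 7 as a mean over cells. The genes higher in butyrate there were 1 as a mean over cells, 7 with the Epcam level subtracted and 0 under the stricter Cdh5 gate. Of the 7 with that level subtracted, all but Sparc were below the Epcam level in RA, as Dcn was at 212 against 453 CPM. Their ratios after subtraction therefore have no RA level behind them. Of the genes past 2-fold in the Cdh5 cells, Col14a1 (0.917) and Has1 (0.459) changed side of 1 under the stricter gate. In thinned cells Postn (1.14) and Has1 (0.475, from 1 and 3 UMIs) did so, and Col14a1 had 0 and 3 UMIs there. Fbln1 in the Cdh5 cells was below the Epcam level in both libraries, 46.5 and 4.37 CPM against 103 and 35.4. With that level subtracted, no Fbln1 ratio can be read. The Epcam level is that of all Epcam cells, and most of its matrix UMIs lay in those with at least 2 Col3a1 UMIs. Being below it therefore says little about the background in other cells. Of the other members whose interval excluded 1, those that changed side in the Cdh5 cells were Col3a1 (0.340) and Lama2 under the stricter gate and Col4a2 and Nid1 in thinned cells. In the fibroblasts they were Col14a1 (0.978) and Bgn (0.998) in thinned Dpt/Scara5 cells and, without cells holding other markers, Mmp3 in the Dpt/Scara5 and Has1 in the Adamdec1/Tcf21 cells. Members whose interval held 1, such as Col1a2, also changed side. The stricter gate removes the cells that held those Has1 and Col14a1 UMIs, and otherwise the cause was not tested. No paired analysis was possible because each group has 1 library. The sums of the Cdh5 cells, 1762535 and 1145469 UMIs, left 11 members under the minimum of 50 UMIs between libraries.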
